A study of Rattus norvegicus with 21 samples.

Results

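A set of 6 genes that are widely used to recognise microglia, or that let them sense extracellular nucleotides, was followed across sorted spinal cord microglia and total spinal cord of rats given an antibiotic into the airways. They were taken by their Ensembl identifiers from the 32883 genes of the count tables: P2ry12 (ENSRNOG00000013902), P2rx7 (ENSRNOG00000001296), P2rx4 (ENSRNOG00000001300), Aif1 (ENSRNOG00000000853), Itgam (ENSRNOG00000019728) and Ptprc (ENSRNOG00000000655). All 6 passed the filter on low counts in both tissues. The animals were rats of the inbred strain LEW/Crl, wild type in genotype and 6 to 8 weeks old. They were treated intratracheally for 7 days with PBS (the control), neomycin (NEO, an aminoglycoside) or vancomycin (VANCO, a glycopeptide). The series asked how antibiotics act on the central nervous system. For each treatment there were 4 libraries of microglia, sorted as CD45low CD11b+ cells and numbered 1, 2, 3 and 5, and 3 libraries of total cord, numbered 1, 2 and 3. Myelin was removed from both homogenates with Percoll, so total cord here is the pellet that remains after that step. The labels do not say whether animals were pooled.

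Microglia are the resident macrophages of the brain and spinal cord. Injured or active cells release ATP, which is broken down outside the cell to ADP. P2ry12 encodes a G protein-coupled receptor for ADP that steers microglial processes toward such sources and is a marker of homeostatic microglia. P2rx7 and P2rx4 encode ATP-gated cation channels of the P2X family. The P2X7 channel needs high ATP and is known for triggering the NLRP3 inflammasome, while P2X4 responds to lower ATP and is known from spinal microglia in neuropathic pain. Aif1 encodes IBA1, a calcium- and actin-binding protein stained to show microglia in tissue. Itgam encodes the integrin alpha chain CD11b, which is part of complement receptor 3. Ptprc encodes CD45, a phosphatase found on all nucleated blood-lineage cells and carried at a low level by microglia. CD11b and CD45 are the proteins on which the cells were sorted, so high Itgam and Ptprc in the sorted cells are a property of the gate and no finding.

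P2rx4 and P2rx7 are neighbours on chromosome 12, with 1 annotated pseudogene, Rpl32-ps11, between them in the RefSeq annotation of GRCr8. RefSeq windows were matched for 4 of the 6 genes: P2rx7, P2rx4, Itgam and Ptprc. The 250 bases upstream of the annotated start of the P2X pair and of the sort-gate pair are shown because the neighbouring P2X genes differed in how far the tissues stood apart, with the sort-gate genes beside them for contrast. The windows are chr12:39594923-39595172 (minus strand) for P2rx7, chr12:39523090-39523339 (minus strand) for P2rx4, chr1:192089342-192089591 (plus strand) for Itgam and chr13:52259747-52259996 (minus strand) for Ptprc, all in GRCr8 and all written 5′ to 3′ along the gene. Capitals mark GAGGAA, a core recognised by the myeloid factor PU.1, or its reverse complement TTCCTC.
P2rx7: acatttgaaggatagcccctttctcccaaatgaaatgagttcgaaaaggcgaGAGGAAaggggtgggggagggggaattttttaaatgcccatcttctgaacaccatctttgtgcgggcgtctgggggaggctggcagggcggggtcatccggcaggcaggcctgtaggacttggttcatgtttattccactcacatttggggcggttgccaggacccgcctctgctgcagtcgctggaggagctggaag
P2rx4: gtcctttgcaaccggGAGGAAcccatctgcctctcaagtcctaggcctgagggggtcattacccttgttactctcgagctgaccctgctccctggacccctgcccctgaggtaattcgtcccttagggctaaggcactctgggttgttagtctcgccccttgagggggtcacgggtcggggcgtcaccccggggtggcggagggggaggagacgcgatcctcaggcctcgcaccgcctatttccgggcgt
Itgam: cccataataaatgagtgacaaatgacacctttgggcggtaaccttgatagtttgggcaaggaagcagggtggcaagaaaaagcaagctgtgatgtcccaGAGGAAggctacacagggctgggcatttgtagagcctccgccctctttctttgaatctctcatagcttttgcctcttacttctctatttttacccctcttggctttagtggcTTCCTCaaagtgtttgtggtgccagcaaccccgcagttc
Ptprc: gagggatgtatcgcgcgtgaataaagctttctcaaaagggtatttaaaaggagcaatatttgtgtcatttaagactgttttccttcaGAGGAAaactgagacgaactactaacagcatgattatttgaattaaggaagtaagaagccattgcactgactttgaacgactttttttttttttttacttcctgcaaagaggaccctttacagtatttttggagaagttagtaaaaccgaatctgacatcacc
Itgam held 2 matches, 1 on each strand, and P2rx7, P2rx4 and Ptprc held 1 each. Of all 33469 RefSeq windows of this length, 23.3% held at least 1 match, and a match is only a string of letters. The windows differed in base composition: the P2rx4 window was 64% G or C with 15 CpG pairs, that of P2rx7 56.0% with 9, that of Itgam 48.4% with 3 and that of Ptprc 36.0% with 6. The median over all windows was 51.2% with 5 CpG pairs.

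Depth was 9020480 to 22435887 counts in the 12 microglia libraries and 16769410 to 25114844 in the 9 cord libraries. The lowest count behind any value of the 6 genes was 125 in cord (P2rx7, exact Poisson 95% interval 104 to 149) and 635 in microglia (P2rx4, 587 to 686), counting error only. Levels are given as CPM, read counts normalised to library sizes that were scaled across all 21 libraries by trimmed means (TMM). Library values are listed in the order of the replicate numbers. As a measure of RNA from other cord cells, the share of counts from the 1646 genes at least 64-fold higher in PBS cord than in PBS microglia was 28.7% to 33.2% in cord. It was 2.57% in NEO microglia library 2 and 0.0367% to 0.306% in the other 11 microglia libraries, so that this library stood apart. The NEO results in microglia that moved most without it are given both ways. In the RefSeq annotation P2ry12 overlaps Med12l and P2rx4 overlaps Camkk2. Part of their counts could belong to those neighbours, since the strand setting of the counting was not given in the sources used here.

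The 6 genes were all far higher in sorted microglia than in total cord. P2ry12 was measured at 1847, 1851, 2013 and 2267 CPM in the PBS microglia libraries and at 41.2, 50.3 and 49.0 CPM in PBS cord. After NEO it was 1957, 1828, 2088 and 2150 CPM in microglia and 46.0, 51.1 and 49.2 CPM in cord, and after VANCO 1872, 1834, 2061 and 2425 CPM in microglia and 44.0, 48.9 and 50.1 CPM in cord. No microglia library came near the cord range, and within each tissue the treatments overlapped. The microglia-to-cord log2 difference of P2ry12 was 5.41 (SE 0.14) in PBS, 5.36 in NEO and 5.43 in VANCO, with an edgeR quasi-likelihood adjusted p of 7.71e-16 in PBS.

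P2rx7, the high-threshold ATP channel, gave 262, 216, 267 and 295 CPM in PBS microglia against 11.97, 7.33 and 8.40 CPM in PBS cord. After NEO the microglia libraries gave 302, 174, 240 and 279 CPM and the cord libraries 11.1, 9.99 and 9.25 CPM. After VANCO they gave 265, 249, 256 and 251 CPM and 11.2, 9.70 and 10.9 CPM. The 4 VANCO microglia libraries lay closest together (SD 6.95 CPM), while NEO microglia library 2 was the lowest of all 12. The log2 difference between the tissues was 4.81 (SE 0.21, edgeR adjusted p = 4.91e-13) in PBS, 4.62 in NEO and 4.59 in VANCO.

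P2rx4, the channel that opens at lower ATP, stood least apart. It was 80.7, 82.9, 89.1 and 100 CPM in PBS microglia and 14.8, 12.02 and 16.1 CPM in PBS cord. After NEO it was 79.9, 55.3, 91.9 and 103 CPM in microglia and 14.8, 12.7 and 15.9 CPM in cord, and after VANCO 75.6, 79.6, 88.9 and 90.7 CPM and 13.3, 12.8 and 14.3 CPM. The tissues did not overlap, although NEO microglia library 2 was again the lowest. The log2 difference of P2rx4 was 2.62 (SE 0.18, edgeR adjusted p = 2.17e-10) in PBS, 2.51 in NEO and 2.63 in VANCO.

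Aif1, the gene of IBA1, gave 591, 957, 624 and 720 CPM in PBS microglia and 29.1, 34.5 and 33.1 CPM in PBS cord. NEO microglia gave 607, 1035, 646 and 673 CPM and VANCO microglia 622, 987, 603 and 703 CPM. In cord Aif1 was 30.4, 32.7 and 38.3 CPM after NEO and 29.1, 33.1 and 29.1 CPM after VANCO. In microglia the library numbered 2 was the highest under every treatment, and the cord showed no such gap. The tissue difference of Aif1 on the log2 scale was 4.49 (SE 0.24, edgeR adjusted p = 1.24e-11) in PBS, 4.45 in NEO and 4.58 in VANCO.

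Itgam, whose product CD11b was in the gate, gave 767, 847, 882 and 874 CPM in PBS microglia, 817, 704, 847 and 786 CPM in NEO microglia and 844, 907, 916 and 715 CPM in VANCO microglia. In cord it was 24.3, 23.2 and 23.8 CPM after PBS, 25.6, 23.3 and 21.7 CPM after NEO and 24.1, 20.6 and 21.8 CPM after VANCO. Its level in PBS cord had the lowest coefficient of variation of the 6 genes there (2.36%, n = 3). Ptprc, the gene of CD45, gave 693, 657, 805 and 579 CPM in PBS microglia, 742, 885, 830 and 693 CPM in NEO microglia and 742, 734, 818 and 717 CPM in VANCO microglia. In cord Ptprc was 15.9, 14.8 and 15.1 CPM after PBS, 19.4, 17.0 and 15.1 CPM after NEO and 14.9, 15.4 and 13.7 CPM after VANCO. For both gate genes the tissues were widely separated and the treatments overlapped. In PBS the log2 difference between tissues was 5.15 (SE 0.12) for Itgam and 5.49 (SE 0.14) for Ptprc.

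**Figure D1:**
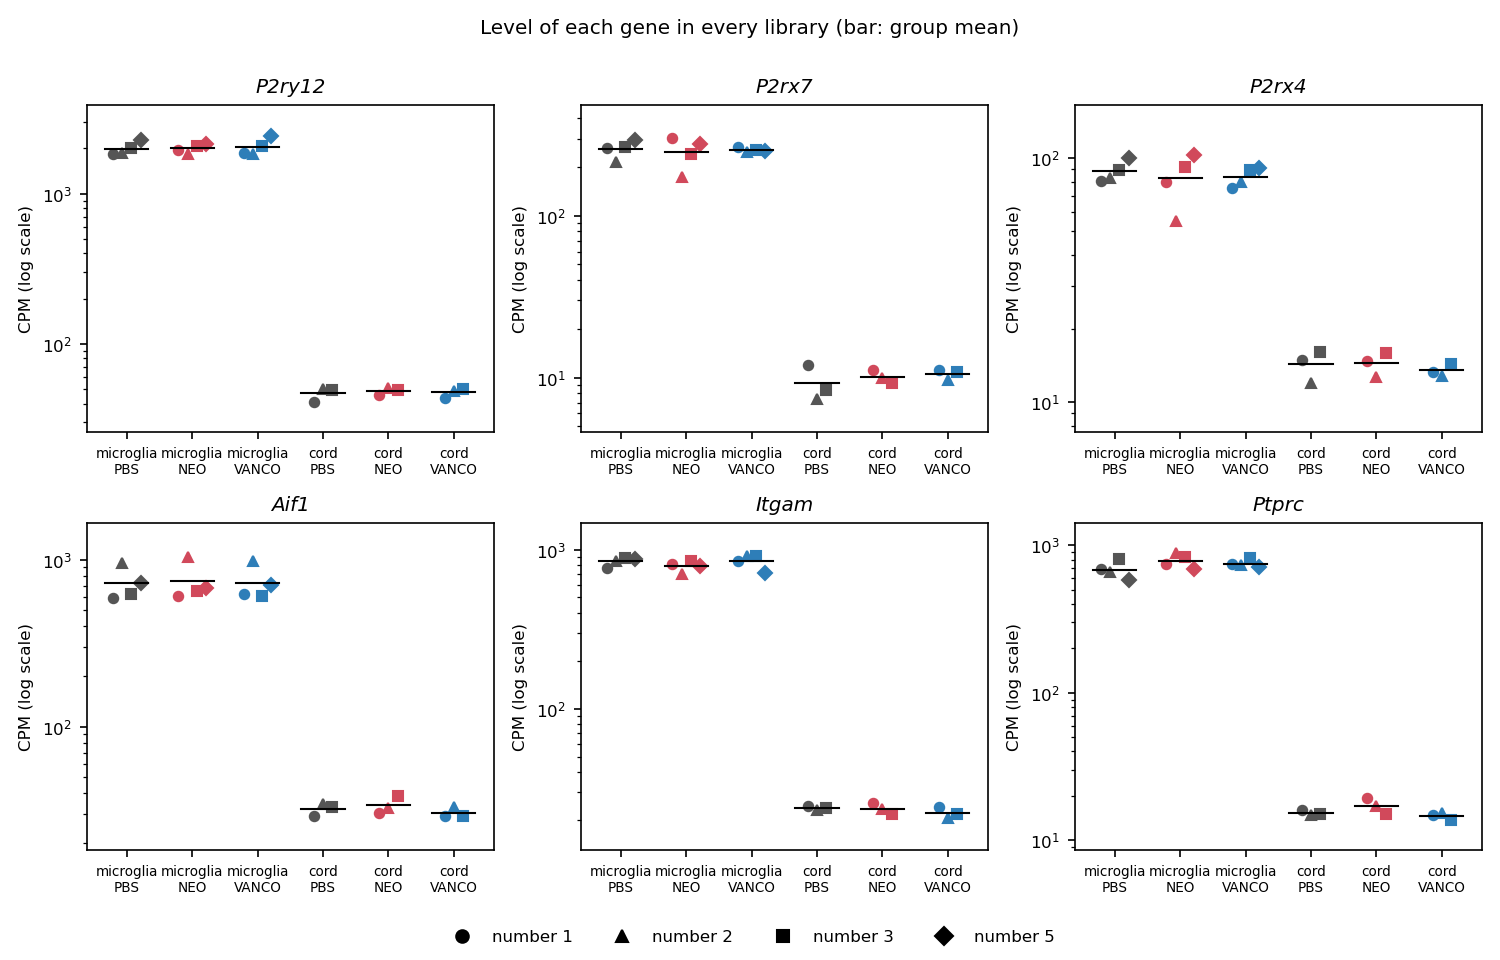
Level of each of the 6 genes in every library, in CPM on a log axis, by tissue and treatment (4 microglia and 3 cord libraries a group, the bar is the group mean, symbols mark the replicate number). Every microglia library lies above every cord library for each gene, and Aif1 in microglia is highest in library 2 of each treatment, at 957 to 1035 CPM.

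All 6 genes passed the test between microglia and cord under each treatment, and all 6 were higher in microglia. Such calls were common: 84% of the 15546 genes tested were called between the tissues in PBS, 83.9% in NEO and 84.1% in VANCO. The 2 groups did not overlap for any of the 6 genes, against 82.1%, 80.2% and 85.3% of all genes that did not overlap. Most genes were thus called, and the counts alone say little about these 6. In PBS the median log2 difference of the 4 genes outside the sort gate (P2ry12, P2rx7, P2rx4 and Aif1) was 4.65, and that over all tested genes was 0.21. With the gate genes included it was 4.98. P2ry12 lay at percentile 98.6 of all genes tested, P2rx7 at 96.9, Aif1 at 96.1 and P2rx4 at 89.6, and the gate genes Ptprc and Itgam at 98.8 and 97.9. The median over all genes moved from 0.21 with TMM to -0.29 with median-of-ratios (RLE) factors and -0.10 with upper quartile factors. Relative to the median of all genes, the difference hardly depended on the scaling, which shifts all genes alike, at 5.20 for P2ry12, 4.60 for P2rx7, 2.41 for P2rx4, 4.27 to 4.28 for Aif1, 4.93 to 4.94 for Itgam and 5.27 for Ptprc. Because these are bulk libraries, the number of microglia in the cord sample, the RNA per microglial cell and RNA of the same genes from other cord cells cannot be told apart.

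Expressed with TMM scaling as the level in cord over the level in microglia, Ptprc in PBS cord was 2.23% of its microglial level (95% interval 1.81% to 2.75%), P2ry12 2.35% (1.92% to 2.87%) and Itgam 2.82% (2.36% to 3.37%). P2rx7 followed at 3.55% (2.62% to 4.81%) and Aif1 at 4.46% (3.13% to 6.38%). P2rx4 was at 16.2% (12.6% to 20.97%), with an interval that lay above those of the other 5 genes. The same gene stood out after NEO, at 17.5%, and after VANCO, at 16.1%, where the other 5 ranged from 1.95% (Ptprc, VANCO) to 4.57% (Aif1, NEO). These intervals do not cover the choice of scaling. With RLE factors the PBS log2 difference was 4.98 for Ptprc, 4.91 for P2ry12 and 2.12 for P2rx4, against 5.49, 5.41 and 2.62 with TMM. It was lower for all 6 genes, so each percentage would be higher. Without NEO microglia library 2 the NEO values were 18.8% for P2rx4, 6.26% for Aif1, 4.39% for P2rx7, 3.43% for Itgam, 2.81% for P2ry12 and 2.70% for Ptprc. The corresponding log2 differences were 2.41, 3.997, 4.51, 4.87, 5.15 and 5.21, all still called by edgeR, while the median over all genes moved from 0.17 to -0.07. Relative to that median, the NEO difference without the library and with it was 5.22 and 5.19 for P2ry12, 4.58 and 4.45 for P2rx7, 2.48 and 2.34 for P2rx4, and 4.07 and 4.28 for Aif1.

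**Figure D2:**
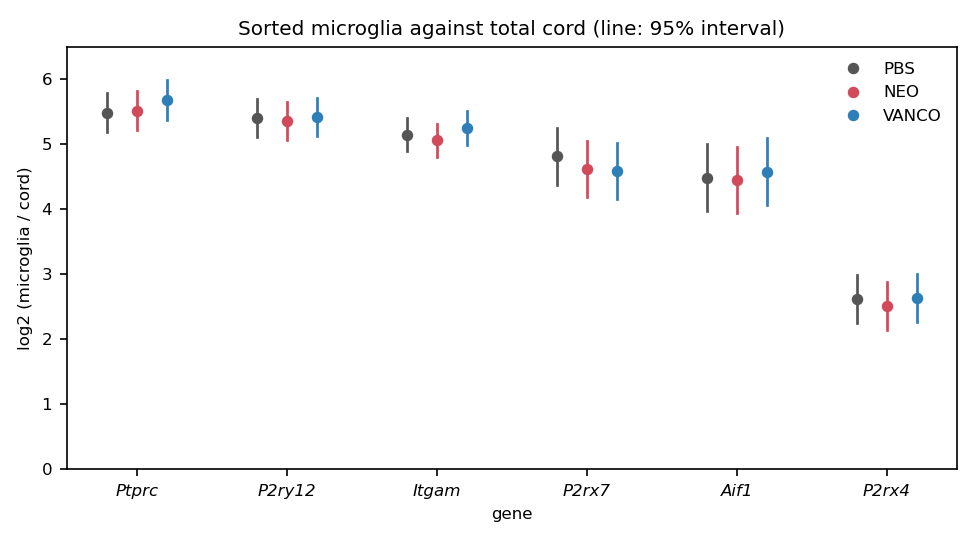
Log2 difference between sorted microglia and total cord for each gene under each treatment, with its 95% interval (edgeR, 4 microglia and 3 cord libraries a group). P2rx4 lies at 2.51 to 2.63 and the other 5 genes at 4.45 to 5.68.

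That P2rx4 in cord stood higher relative to its level in sorted microglia was tested without any scaling, as ratios of counts within a library. The counts of P2rx7 over those of P2rx4 came to 2.60 to 3.77 in the 12 microglia libraries (median 2.97) and to 0.522 to 0.845 in the 9 cord libraries (median 0.755). The 2 ranges did not overlap: P2rx7 counts exceeded P2rx4 counts in every microglia library and fell short of them in every cord library. The log2 ratio differed by 2.09 between the tissues. Since libraries of 1 number deviate together, they were averaged over treatments to 4 microglia and 3 cord means, and these were compared (two-sided exact permutation, p = 0.0286, the smallest that 35 regroupings allow, adjusted over 15 ratios 0.0429). Every ratio at that smallest p had the same adjusted p, down to Ptprc over Itgam with a log2 difference of 0.41. The ratios share genes, so the adjusted p sets the P2X pair apart from none of those. Within numbers 1, 2 and 3 the P2rx7 to P2rx4 difference was 2.05 to 2.204. Pairing by number was checked within each tissue only, so this range and the later ones within shared numbers rest on no checked match. With the libraries taken as independent, 12 against 9, the adjusted p of the exact permutation was 1.02e-05, which is too small for libraries that share a number. Without NEO microglia library 2 the difference was 2.09 as well. The pair was singled out after the values were seen. By treatment the mean ratio was 2.95 ± 0.266 in PBS, 3.06 ± 0.528 in NEO and 3.07 ± 0.322 in VANCO microglia (SD, n = 4). In cord it was 0.646 ± 0.145, 0.706 ± 0.109 and 0.786 ± 0.0515 (SD, n = 3). The ratio says nothing of which transcript was more abundant per molecule, since the lengths were not used. Nor does it remove counts that could belong to Camkk2, which overlaps P2rx4, while no gene overlaps P2rx7. The part of Camkk2 in the ratio was not tested.

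**Figure D3:**
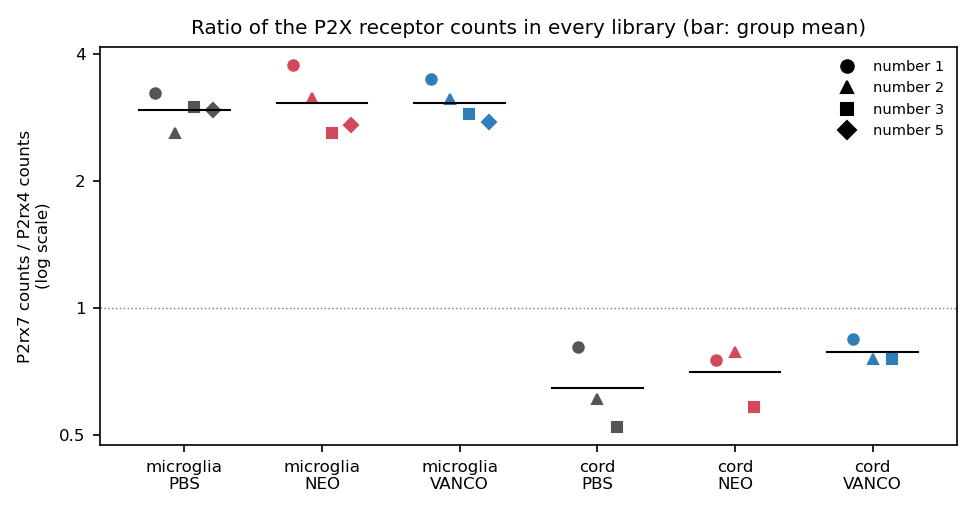
Ratio of P2rx7 to P2rx4 counts in every library, on a log axis, with the group mean as a bar. All 12 microglia libraries lie between 2.60 and 3.77 and all 9 cord libraries between 0.522 and 0.845.

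The same ratios show which neighbours in the order of tissue differences could be told apart. Ptprc and P2ry12 could not, with a difference of 0.16 on the log2 scale (exact permutation of the number means, adjusted p = 0.367). P2ry12 stood further apart than Itgam by 0.24, which did not pass either (exact permutation, adjusted p = 0.0714). Within the 3 shared numbers that difference ran from 0.01 to 0.40, and the highest microglia ratio, 3.39, was in number 5, which cord lacks. Itgam stood further apart than P2rx7 by 0.48 (exact permutation, adjusted p = 0.0429), with 0.44 to 0.63 within the 3 shared numbers. Ptprc and Itgam encode the proteins of the sort gate, so their place in this order is a property of the gate and no finding. P2rx7 and Aif1 could not be told apart, with a difference of 0.19 (exact permutation, adjusted p = 0.571), while Aif1 stood further apart than P2rx4 by 1.90 (exact permutation, adjusted p = 0.0429).

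No difference between treatments passed the test for any of the 6 genes. In microglia the edgeR fit called 0 of the 6 for NEO against PBS, where 0.0398% of 12570 genes were called, and 0 for VANCO against PBS and for NEO against VANCO, where 0% were called. In cord 0 of the 6 were called in the same 3 comparisons, with 0% of 14677 genes called in each. At an unadjusted p under 0.05 the count was also 0 of 6 in all 6 comparisons, with edgeR, DESeq2 and limma-voom in fits without pairing. Over all genes, edgeR put 655 of 12570 under it for NEO against PBS, 108 for VANCO against PBS and 269 for NEO against VANCO in microglia. In cord these were 400, 124 and 331 of 14677. Every gene's groups overlapped in every comparison between treatments. The share of all genes whose groups did not overlap was 2.98% for NEO against PBS, 1.19% for VANCO against PBS and 1.42% for NEO against VANCO in microglia, and 6.49%, 4.13% and 7.02% in cord.

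The libraries pair by replicate number, and a fit with that number as a block narrowed the intervals. It called 0 of the 6 genes too, with Ptprc alone at an unadjusted p under 0.05, for NEO against PBS in microglia and for NEO against VANCO in cord. Such p-values were common with the block, at 1706 of 12570 genes in the former comparison and 1295 of 14677 in the latter. The block called more genes in all: 0.748% for NEO against PBS, 0% for VANCO against PBS and 0.167% for NEO against VANCO in microglia, and 0.681%, 0.00681% and 0.436% in cord. The antibiotic-to-PBS fold changes of the 6 genes had 95% intervals within 0.721 to 1.48 in microglia and 0.776 to 1.48 in cord. With the block these narrowed to 0.807 to 1.36 in microglia and 0.832 to 1.36 in cord. The missing calls do not show that the levels were equal.

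For the nucleotide receptors the antibiotic differences in microglia were small. P2ry12 differed from PBS by 0.03 on the log2 scale after NEO and 0.06 after VANCO (SE 0.11 each). P2rx7 differed by -0.04 and -0.01 (SE 0.14 each), and P2rx4 by -0.08 and -0.06 (SE 0.14 each). In cord P2ry12 differed by 0.05 and 0.03, P2rx7 by 0.12 and 0.19 and P2rx4 by 0.01 and -0.09, with SEs of 0.09 to 0.17. The largest of these, P2rx7 in cord after VANCO, came with a wide interval (fold 1.14, 95% interval 0.886 to 1.48) and rests on few counts, 125 to 212 in the PBS libraries. Without NEO microglia library 2, the unpaired NEO difference turned to 0.08 for P2rx7 and 0.05 for P2rx4 and was 0.05 for P2ry12, with none called. That fit keeps number 2 in PBS. With the block as well, P2rx7 and P2rx4 were both at 0.03 and P2ry12 at 0.02. Pair by pair, P2rx4 was lower after VANCO in 4 of 4 microglia pairs and P2ry12 higher after NEO in 3 of 3 cord pairs. All pairs pointed 1 way for 15.9% and 29.8% of all genes in these comparisons. The pairs numbered 3 were nearly tied. P2rx4 was at 88.93 CPM after VANCO and 89.09 CPM in PBS microglia. P2ry12 was at 49.19 CPM after NEO and 48.97 CPM in PBS cord. The directions of these 2 pairs rest on the scaling across all 21 libraries.

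Among the identity genes, Aif1 differed from PBS by 0.07 after NEO and 0.02 after VANCO in microglia (SE 0.23 each) and by 0.06 and -0.08 in cord. Without NEO microglia library 2 the unpaired NEO difference of Aif1 in microglia was -0.17, in a fit that keeps the high number 2 library in PBS. With the block as well it was 0.01, and neither was called. Itgam differed by -0.07 and 0.02 in microglia and by -0.02 and -0.10 in cord, and its NEO difference in microglia was -0.04 without NEO library 2. Aif1 and Itgam were both lower after VANCO in 3 of 3 cord pairs, where all pairs pointed 1 way for 22.5% of all genes. The pairs numbered 1 were nearly tied, at 29.07 against 29.13 CPM in PBS for Aif1 and 24.12 against 24.28 CPM for Itgam. Between the antibiotics themselves, the log2 differences of the 6 genes lay from -0.09 to 0.08 for microglia, and for cord between -0.07 and 0.22, the last being that of Ptprc. Without NEO microglia library 2 the unpaired microglia value went from 0.04 to -0.20 for Aif1 and from -0.02 to 0.11 for P2rx4. It went from -0.03 to 0.09 for P2rx7 and from 0.08 to -0.01 for Ptprc, with none called.

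Ptprc had the largest NEO difference of the 6 genes in each tissue, without being called. It was 788 ± 86.2 CPM in NEO against 684 ± 93.6 CPM in PBS microglia (SD, n = 4), a log2 difference of 0.24 (SE 0.13, edgeR adjusted p = 0.858). With the block it was 0.24 (SE 0.09, unadjusted p = 0.0288, edgeR adjusted p = 0.33), so the call was not reached. Without NEO microglia library 2 it was 0.15, and 0.14 with the block (edgeR adjusted p = 0.333). In cord Ptprc was 17.2 ± 2.12 CPM in NEO against 15.2 ± 0.597 CPM in PBS (SD, n = 3), a log2 difference of 0.16 (SE 0.11). Set by number, NEO was above PBS in 7 of 7 pairs over both tissues, as were 2.88% of 11862 genes tested in both. The cord pair numbered 3 was nearly tied, at 15.13 CPM in NEO and 15.05 CPM in PBS. Its direction rests on the scaling across all 21 libraries. Ptprc was singled out after its values were seen. After VANCO Ptprc was above PBS in 4 of 4 microglia pairs and in 1 of 3 cord pairs. Against VANCO, NEO cord was higher in 3 of 3 pairs, with a log2 difference of 0.22 (SE 0.11) and with the block 0.22 (SE 0.09, unadjusted p = 0.0176, edgeR adjusted p = 0.418). Pairs that all point 1 way were common: over all genes they made up 24.2% for NEO against PBS, 15.9% for VANCO against PBS and 13.6% for NEO against VANCO in microglia, and 29.8%, 22.5% and 30.2% in cord. The microglia values are those of cells sorted on the protein that Ptprc encodes.

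**Figure D4:**
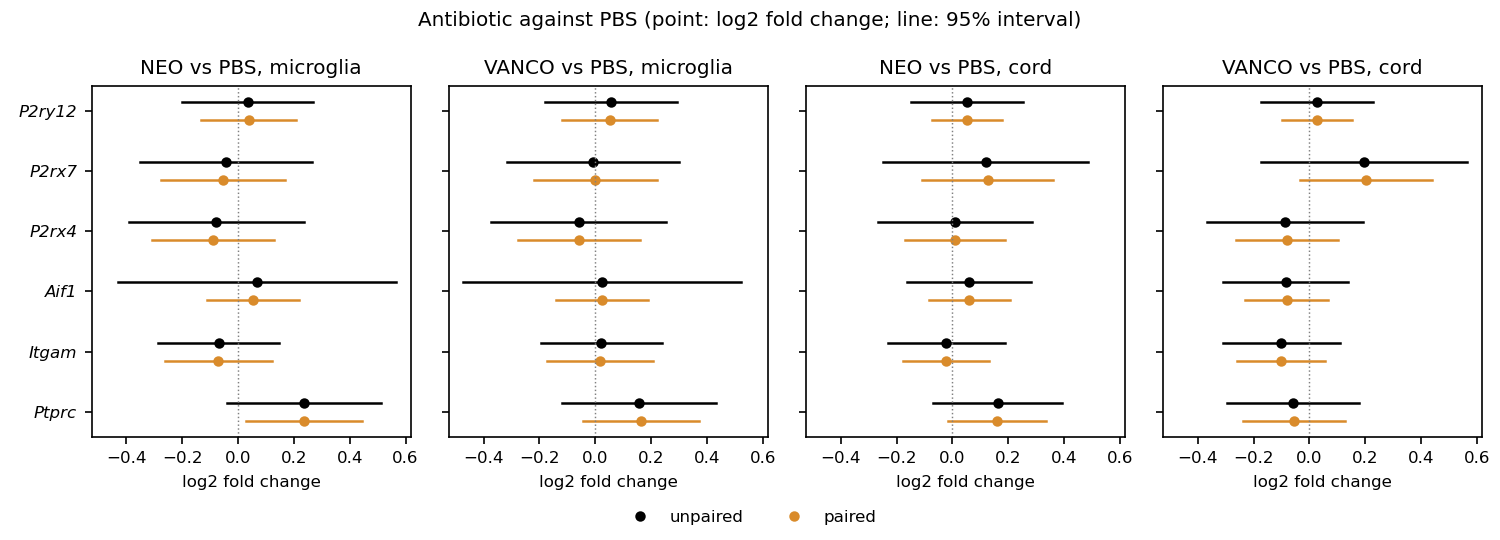
Log2 fold change of each gene for each antibiotic against PBS in each tissue, with its 95% interval, from the unpaired fit (black) and the fit with the replicate number as a block (orange). All points lie between -0.10 and 0.24, and in the unpaired fit every interval includes 0.

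The question of whether an antibiotic acted differently on a gene in the 2 tissues was tested as the difference of its effects. The edgeR test of the difference called 0 of the 6 genes for NEO and for VANCO, with 0% of 15546 genes called in each, and with the block 0 of the 6 again, where 0.193% and 0.116% of genes were called. The largest of these differences was that of P2rx7 for VANCO, at -0.22 (SE 0.24), followed by Ptprc for VANCO at 0.20 (SE 0.16) and P2rx7 for NEO at -0.20 (SE 0.24). Without NEO microglia library 2 the NEO difference of P2rx7 was -0.04, that of Aif1 -0.22 and that of P2rx4 0.05, with none called. With the library those of Aif1 and P2rx4 were -0.03 and -0.11.

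Some of the 6 genes differed between replicate numbers within a tissue. In microglia an F test of the number terms called 1 of the 6, Aif1 (edgeR adjusted p = 0.000337), where 35.8% of 12570 genes were called. P2rx4 (0.0706), P2rx7 (0.0877), P2ry12 (0.121), Ptprc (0.133) and Itgam (0.534) were not called. In cord it called 3 of the 6, the nucleotide receptors P2rx4 (edgeR adjusted p = 0.0253), P2ry12 (0.0313) and P2rx7 (0.0334), where 32.5% of 14677 genes were called, and not Aif1 (0.0825), Ptprc (0.176) or Itgam (0.178). The counts of called members lie around these backgrounds. The labels do not say what a number stands for.

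Aif1 in microglia was 0.67 higher on the log2 scale (SE 0.07) in the libraries numbered 2 than in the others, a contrast picked after the values were seen and given as a description. In cord the same contrast was 0.08 (SE 0.06). The cord-enriched share was also highest in number 2 of each treatment in microglia, at 0.306% in PBS, 2.57% in NEO and 0.303% in VANCO. Aif1 itself was 29.1 to 38.3 CPM in total cord and 957 to 1035 CPM in the number 2 microglia libraries. The part of other cells in the Aif1 values was not tested.

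For some genes the highest or the lowest library carried the same number under every treatment. In microglia P2ry12 and P2rx4 were highest in number 5 under all 3 treatments, Ptprc was lowest in number 5, P2rx7 was lowest in number 2 and Itgam was highest in number 3. In cord P2ry12 and Aif1 were lowest in number 1 under all 3 treatments, P2rx7 and Itgam were highest in number 1, and P2rx4 was lowest in number 2 and highest in number 3. With Aif1 in microglia these made 6 of the 6 genes in microglia and 5 of the 6 in cord, where 52.7% and 55.5% of all genes had such a recurring extreme. They are a description, since the test of number called Aif1 alone in microglia.

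**Figure D5:**
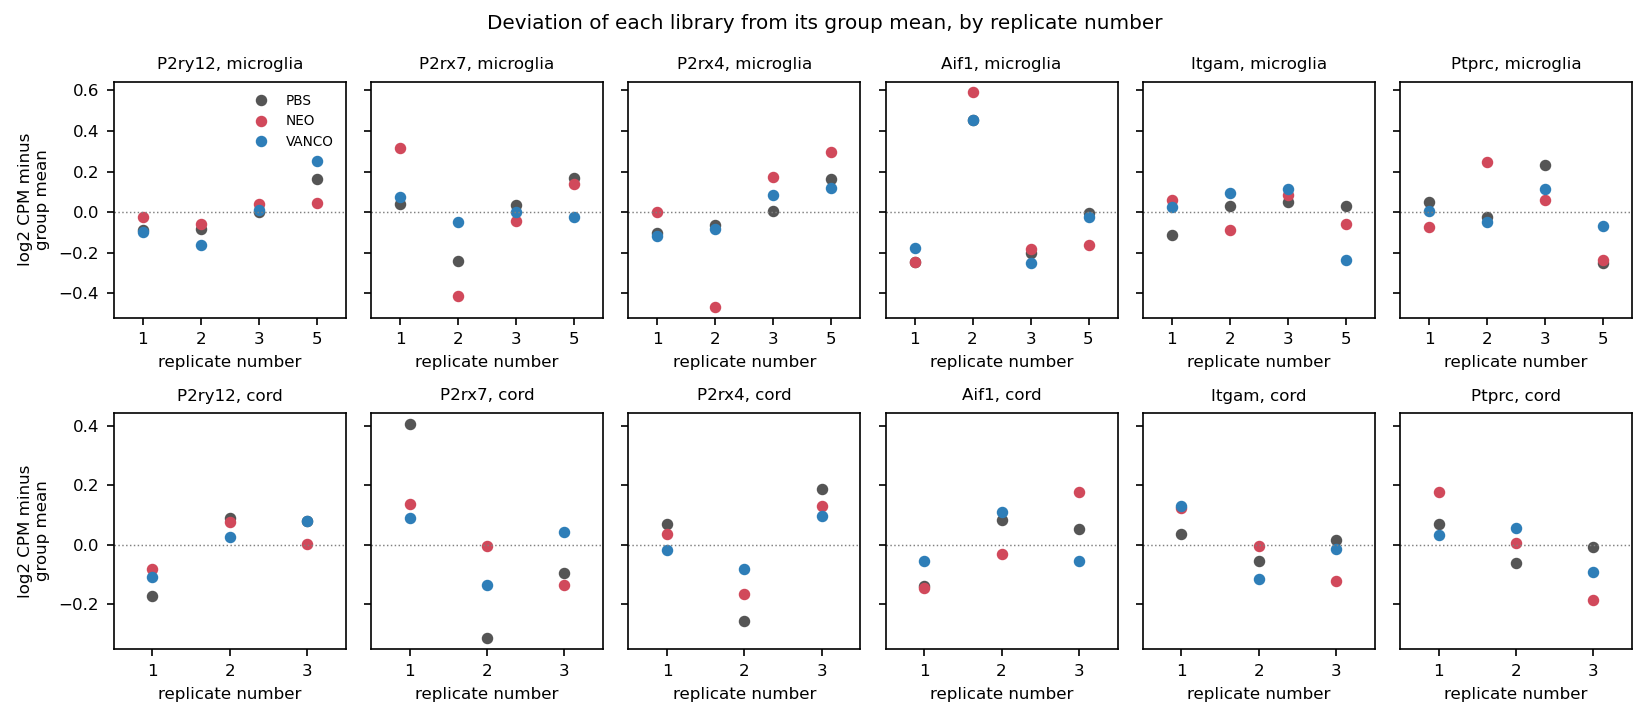
Deviation of each library from its group mean, in log2 CPM, against its replicate number, for each gene in microglia (upper row) and cord (lower row), coloured by treatment. Aif1 in microglia shows the 3 libraries numbered 2 together above the rest, and P2rx4 in cord shows number 2 lowest and number 3 highest in each treatment.

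Other genes followed the 6 across the 12 microglia libraries to different degrees, measured as Pearson's r of log2 CPM after subtracting group means. Aif1 had 717 genes of 12564 at r of 0.9 or more, P2rx4 210, P2rx7 186, Ptprc 18, P2ry12 8 and Itgam 1. Without the 3 libraries numbered 2 the count for Aif1 was 24 and that for P2rx7 13. P2rx4 still had 122 such genes, Ptprc 52, P2ry12 50 and Itgam 24 over the 9 libraries that remained. The group means subtracted there still included the libraries numbered 2. With fewer libraries a high r is also easier to reach, so counts over 9 and 12 libraries are not directly comparable. These are descriptions over libraries that share number and depth, and the tables used here do not pair the other identifiers with names.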

How the data were processed

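Bulk RNA-seq of 12 sorted microglia and 9 total cord libraries was used. The authors deposited raw read counts per Ensembl gene, 1 table a library; featureCounts 1.5.0-p1, the aligner STAR 2.5.2a, the demultiplexer bcl2fastq 2.20.0.422 and build rn6 appear in the submitters' processing notes (strand and annotation: not given in the sources used here). Groups and replicate numbers came from the sample titles. Tests used edgeR 4.0.16 in R 4.3.3 (filterByExpr, TMM, robust quasi-likelihood F test, Benjamini-Hochberg adjustment over all genes tested, threshold 0.05), fitted on 12 microglia, 9 cord or all 21 libraries for treatment, treatment and tissue comparisons respectively. DESeq2 1.42.0, limma 3.58.1 (voom), other scalings, other filters, the replicate block and left-out libraries were alternatives. The block with each library left out, the F test of replicate number and the count ratios (exact permutation of libraries and of number means) were added after seeing the data. The script was tested on simulated data.

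Deviations from group means of same-numbered libraries of different treatments correlated across genes at r of 0.24 to 0.79 in microglia (12 pairs) and 0.36 to 0.59 in cord (9 pairs). All exceeded 0.1, so the numbers pair the libraries within each tissue. Other pairs gave -0.55 to 0.34 in microglia and -0.49 to 0.01 in cord. A match of numbers between the tissues was not checked. No replicates of 1 group agreed within sampling noise (chi-square per degree of freedom 8.35 to 221 over 27 pairs). The labels do not say that replicates are separate animals, and p-values then cover only the spread among these libraries, which may be technical. The 6 genes were always named, and with the lists they were chosen with earlier results of these data known. Lists of other purinergic, microglial and cell type marker genes were not used here, because no table pairs the identifiers with symbols, so the labelled cell types were not checked against other markers. RefSeq sequences are of GRCr8, with no coordinates converted.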

Additional observations from a re-analysis of the deposited data

Results flagged for a closer look

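Aif1 in NEO microglia library 2, at 1035 CPM, lay apart from the other 3 libraries of its group, which gave 607 to 673 CPM. The gap to its nearest neighbour was 0.844 of the group's whole range, above Dixon's 95% critical value for 4 libraries. It was the only such value among the 18 groups of microglia libraries examined (6 genes under 3 treatments), and chance flags about 1 in 20 groups. In the same library the cord-enriched share was 2.57%. Aif1 was also highest in number 2 of PBS microglia, at 957 CPM, and of VANCO microglia, at 987 CPM. There the cord-enriched share was 0.306% in PBS and 0.303% in VANCO. The part of other cells in these Aif1 values was not tested.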

How the results depend on the processing

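The number of the 6 genes called was the same under every alternative run: 0 in each of 177 fits of the antibiotic comparisons, 6 in each of 63 fits of the tissue comparisons, and 0 in every fit of the differences between tissues. The pairing by replicate number, added as a replicate block, changed no call: Ptprc for NEO against PBS in microglia was 0.24 with the block (edgeR adjusted p = 0.33). Counts over all genes did move. For NEO against PBS in microglia the 5 genes called became 66 with DESeq2, 1 with limma-voom, 2 with RLE factors, 12 with upper quartile factors, 94 with the block and 0 with the compared groups alone; in cord 0 became 24 with DESeq2 and 100 with the block. Between the tissues in PBS, 6991 genes higher and 6074 lower in microglia became 5143 and 7367 with RLE factors. Directions of uncalled differences were not stable, and the cause was not tested. P2rx7 for VANCO against PBS in microglia, -0.01, was 0.0001 with limma-voom and 0.0006 with the block. Aif1 in the NEO effect in microglia minus that in cord, -0.03, was 0.018 with DESeq2 and with RLE factors and 0.0021 with upper quartile factors, and P2rx4 in the VANCO effect in microglia minus that in cord, 0.01, was -0.0003 with limma-voom. For the count ratios between tissues, taking libraries as independent in place of number means added calls for 3 of the 15 (P2ry12 to Itgam, P2ry12 to Aif1 and Itgam to Aif1), with and without NEO microglia library 2. With 1 library or number left out, the sign turned in at least 1 fit for 32 of 66 gene and comparison pairs, none of them called or between tissues; their log2 ranges follow. For NEO against PBS in microglia, P2rx7 -0.16 to 0.077, P2rx4 -0.18 to 0.053 and Aif1 -0.17 to 0.24. For VANCO against PBS in microglia, P2ry12 -0.0336 to 0.12, P2rx7 -0.0947 to 0.0656, P2rx4 -0.12 to 0.0109, Aif1 -0.15 to 0.20 and Itgam -0.0354 to 0.11. For NEO against VANCO in microglia, P2ry12 -0.0774 to 0.0666, P2rx7 -0.15 to 0.0857, P2rx4 -0.12 to 0.11, Aif1 -0.20 to 0.22 and Ptprc -0.0259 to 0.15. For NEO against PBS in cord, P2ry12 -0.03 to 0.10, P2rx7 -0.0317 to 0.36, P2rx4 -0.11 to 0.10, Aif1 -0.0345 to 0.13 and Itgam -0.0865 to 0.0509. For VANCO against PBS in cord, P2ry12 -0.0561 to 0.077, P2rx4 -0.21 to 0.0081, Aif1 -0.15 to 0.001 and Ptprc -0.11 to 0.0072. For NEO against VANCO in cord, P2ry12 -0.0253 to 0.0697 and P2rx7 -0.18 to 0.0179. For the NEO effect in microglia minus that in cord, P2ry12 -0.11 to 0.034, P2rx7 -0.47 to 0.0024, P2rx4 -0.24 to 0.0491, Aif1 -0.22 to 0.13 and Ptprc -0.0502 to 0.14. For the VANCO effect in microglia minus that in cord, P2ry12 -0.0775 to 0.10, P2rx4 -0.0809 to 0.12 and Aif1 -0.0837 to 0.26. Taken over genes 8-fold or more above microglia in cord, the share in NEO microglia library 2 was 3.63%. Depth limits P2rx7 in cord most, where its counts were 125 to 212.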
